A study of Rattus norvegicus with 4 samples.

Results

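The genes of the rat major histocompatibility complex (MHC), named RT1 in this species, and of the machinery that loads its molecules with peptide were followed through the cells of healing rat skin. They were chosen by name. All 31 gene symbols that start with RT1- were taken, together with B2m, Cd74, Ciita, Nlrc5, Tap1, Tap2, Tapbp, Psmb8, Psmb9 and Psmb10, which gave 41 of the 23999 genes listed. Of these, 21 encode class I heavy chains, 10 encode class II chains and 10 are partners or regulators. The tissue was skin from a rat wound healing model on day 4, and its cells were sequenced in 4 droplet libraries, each transcript traced to its cell. The 2 injected libraries came from wounds that received purified migrasomes, vesicles that migrating cells leave behind. The 2 uninjected libraries came from wounds that received nothing, so the migrasomes and the injection itself cannot be told apart. The labels name neither the cells that gave the migrasomes nor the strain, age or sex of the rats, and do not say that replicates came from separate animals, so a p-value here measures nothing beyond how these libraries vary, possibly for technical reasons. The comparison asked whether migrasomes change the cells of a healing wound.

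Class I molecules consist of a polymorphic heavy chain and beta-2-microglobulin, and nearly all nucleated cells use them to show peptides from their own proteins to CD8+ T cells. The peptides are cut by the proteasome, carried into the endoplasmic reticulum by the transporter TAP and loaded with the help of tapasin. Class II molecules pair an alpha and a beta chain, travel with the invariant chain Cd74 to endosomes and show taken-up peptides to CD4+ T cells, chiefly on dendritic cells, macrophages and B cells. In skin the Langerhans cells of the epidermis and the dendritic cells of the dermis carry them. Interferon gamma raises genes of both pathways, through Nlrc5 for class I and Ciita for class II. RT1 haplotypes of rat strains differ in their class I genes, and the classical class I genes resemble each other closely, so counts can be split between them.

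The promoters of these genes carry short elements by which they are known to be regulated, and 6 promoters are shown because they hold a recognisable element. The sequences were taken from the RefSeq promoters of the rat assembly GRCr8, written 5′ to 3′ on the gene's strand and ending at the base before the annotated start. The authors' own build is not given in the sources used here. In the class II genes RT1-Da, RT1-Ba and RT1-Db1 the capitals mark the Y box, the inverted CCAAT element bound by the factor NF-Y, in the last 120 bases before the start.
RT1-Da (chr20:4515295-4515414, + strand): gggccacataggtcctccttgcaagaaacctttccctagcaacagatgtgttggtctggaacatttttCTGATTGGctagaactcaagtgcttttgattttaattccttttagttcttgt
RT1-Db1 (chr20:4560163-4560282, - strand): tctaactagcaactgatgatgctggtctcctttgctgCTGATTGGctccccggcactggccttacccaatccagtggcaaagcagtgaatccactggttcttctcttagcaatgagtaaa
RT1-Ba (chr20:4576937-4577056, + strand): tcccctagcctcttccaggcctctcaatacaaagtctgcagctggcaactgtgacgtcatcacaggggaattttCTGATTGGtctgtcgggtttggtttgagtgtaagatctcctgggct
In the class I genes RT1-A1 and RT1-A2 the capitals mark enhancer A, a site of NF-kB, and in B2m, the class I light chain, they mark an interferon response element, in the last 200 bases before the start.
RT1-A1 (chr20:4907009-4907208, + strand): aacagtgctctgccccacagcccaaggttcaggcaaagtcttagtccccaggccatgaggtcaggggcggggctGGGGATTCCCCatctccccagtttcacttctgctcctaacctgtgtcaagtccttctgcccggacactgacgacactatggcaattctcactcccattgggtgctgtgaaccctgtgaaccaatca
RT1-A2 (chr20:4872671-4872870, + strand): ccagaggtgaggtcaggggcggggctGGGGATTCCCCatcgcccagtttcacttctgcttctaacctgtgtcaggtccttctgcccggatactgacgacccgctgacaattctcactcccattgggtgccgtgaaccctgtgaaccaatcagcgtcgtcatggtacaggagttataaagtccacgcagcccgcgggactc
B2m (chr3:129549130-129549329, + strand): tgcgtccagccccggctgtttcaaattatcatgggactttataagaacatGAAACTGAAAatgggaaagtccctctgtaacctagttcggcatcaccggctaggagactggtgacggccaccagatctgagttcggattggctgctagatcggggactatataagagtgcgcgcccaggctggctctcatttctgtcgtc

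Promoters were found for 35 of the 41 genes, and 5 motifs were searched on both strands of the 250 bases before the start. The Y box CTGATTGG was in 11 of them, 7 of 10 among the class II chains with Cd74 and 4 of 19 among the class I heavy chains with B2m, against 3.19% of 33469 promoters. Its core ATTGG, which lies within the Y box, was in 25, including all 10 of the first kind and 14 of 19 of the second, against 34.0% of all promoters. Enhancer A was in the promoters of RT1-A1, RT1-A2, RT1-CE4 and RT1-CE10, against 0.0657% of all. The interferon response element was in 8, among them B2m, Tap1, Tap2, Tapbp and Psmb10, against 3.41% of all. The core of the cyclic AMP element, TGACG, was in 8, against 18.2% of all. In a local alignment the RT1-A1 and RT1-A2 promoters were identical at 185 of 203 aligned bases (91.1%). This was not particular to RT1-A2. The RT1-A1 promoter was nearly as close to those of RT1-CE10 (163 of 180, 90.6%), RT1-CE5 (181 of 204, 88.7%) and RT1-CE4 (155 of 175, 88.6%). A match of letters describes a promoter and does not show that a factor binds there.

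The 4 libraries held 9850 and 6076 injected cells and 9085 and 8720 uninjected cells after filtering, with medians of 3462.5 and 7879.5 UMIs per cell in the injected libraries and 1997 and 4953.5 in the uninjected ones. A UMI is a tag that marks 1 captured transcript. The total counts lay between 75823418 and 105605297 UMIs, and pairs of libraries shared between 14 and 28 cell barcodes. Uninjected 1 stood apart by its low depth and by its low RT1-A2 level, so some fitted differences are also given without it. Cells were gated into classes by marker genes, none of them an MHC gene, and kept in a class where their cluster bore the same name. This placed 28271 of 33731 cells (83.8%) in a class, 2670 met no gate, and for 2790 the gate and the cluster differed. A class is called "like" a cell type since its name rests on markers. Keratinocyte-like cells numbered 2704 and 2461 in the injected libraries and 3555 and 2821 in the uninjected ones. Neutrophil-like cells numbered 3326 and 1044 in injected libraries, against 3656 and 3062 in uninjected ones. Fibroblast-like cells numbered 843 and 573 in injected libraries, against 364 and 632 in uninjected ones. T and NK-like cells numbered 389 and 157 in injected libraries, against 113 and 317 in uninjected ones, and dendritic-like cells 146 and 99 in injected libraries, against 56 and 165 in uninjected ones. Neutrophil-like cells of uninjected 1 lay mostly in another cluster than those of the other libraries. Cluster 2 held 176 and 65 injected cells, against 2704 and 297 uninjected ones, and cluster 5 held 998 and 158 injected cells, against 39 and 718 uninjected ones. Differences within this class therefore also compare subsets, whose part was not tested. The 5 classes named so far were tested, since each library held at least 50 cells of each. Macrophage-like cells numbered 525 and 325 in injected libraries, against 43 and 334 in uninjected ones, and are described only. Here and below, the values of a group stand in the order of its replicates, 1 and then 2. A level is given in CPM, the gene's UMIs scaled to the total UMIs of the class in that library.

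**Figure D1:**
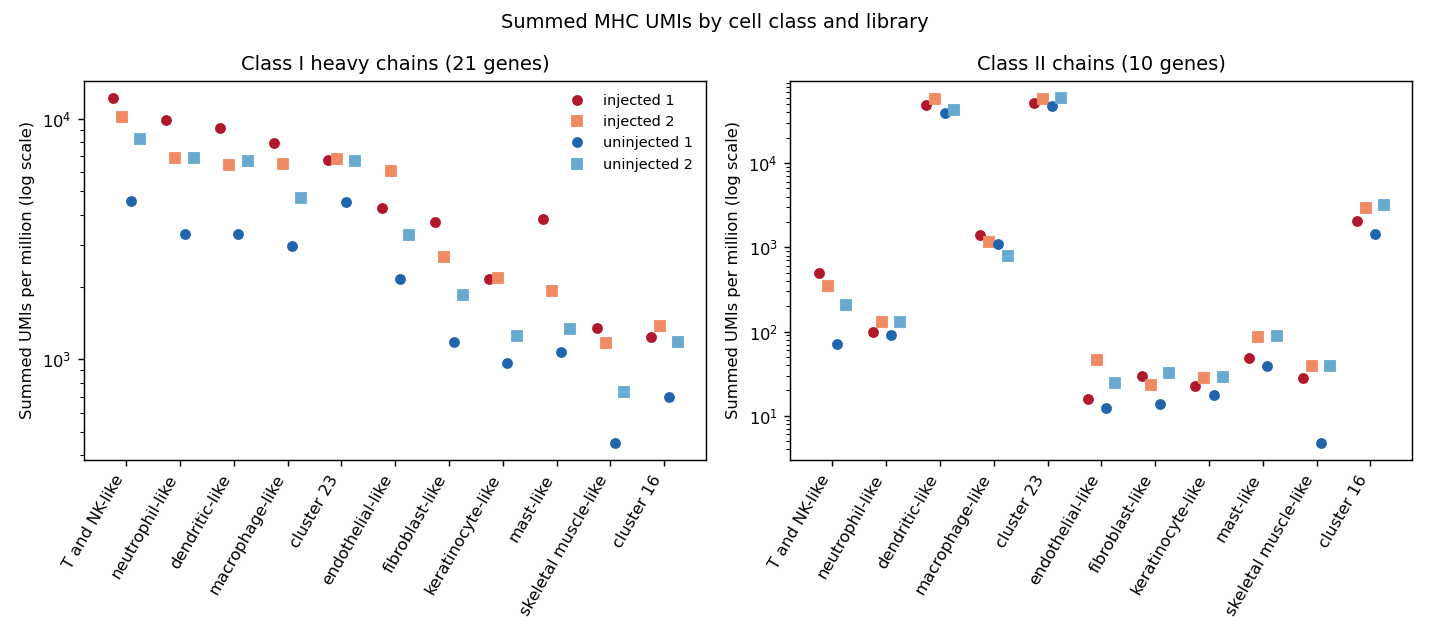
Summed CPM (log axes) of the 21 class I heavy chain genes, left, and the 10 class II chain genes, right, in 9 cell classes and in clusters 23 and 16, which took no class name, 1 point per library (red and orange injected, blue uninjected). Class II sums were highest in dendritic-like cells and cluster 23, between 39214 and 58961, and class I sums in uninjected 1 were the lowest of the 4 libraries in every class shown.

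The class II chains were concentrated in dendritic-like cells, apart from RT1-Db2. All 8 class II chains that could be tested between classes were higher there than in the mean of the other 4 tested classes. Of these 8, 2 were also called higher in neutrophil-like cells (all genes 31.5%), RT1-Db2 by log2 2.37 and RT1-Da by log2 0.70. RT1-Db2 stood at log2 2.39 in dendritic-like cells, so its rise was not particular to them. The joint fit had class and library as terms, and 22.8% of all 12777 genes were called higher in dendritic-like cells. The summed class II level was 48946 and 57581 CPM in injected dendritic-like cells, against 39214 and 42879 in uninjected ones. RT1-Ba, the alpha chain of the RT1-B molecule, showed a difference of log2 9.87, SE 0.19, adjusted p = 5.44e-21. RT1-Db1, the beta chain of RT1-D, showed log2 9.38, SE 0.19, adjusted p = 7.08e-21, and RT1-Da, its alpha chain, log2 9.42, SE 0.20, adjusted p = 1.79e-20. RT1-Bb, the beta chain of RT1-B, followed with log2 9.14, SE 0.25, adjusted p = 1.19e-18. Cd74, the invariant chain, was higher by log2 9.51, SE 0.18, adjusted p = 4.27e-21, and Ciita, the class II transactivator, by log2 5.24, SE 0.48, adjusted p = 4.23e-09. RT1-DOa and RT1-DOb, the chains of the DO molecule that holds back peptide exchange, were also called, at log2 6.60 and 7.26. RT1-DMa and RT1-DMb, the chains of the DM molecule that catalyses the exchange, had 2 and 3 UMIs in all cells placed in a class together. Cells of the clusters without a class name are not in these totals. The classes were formed from other genes of the same cells, and the contrast describes classes so formed.

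Class II transcripts also marked cells that took no class name. Cluster 23, led by Cytip, Rgs1, Kdr and Cd86, held 471 cells, of which 255 passed the dendritic gate. Its class II sum was 52164 and 57083 CPM in injected cells of cluster 23, against 48174 and 58961 in uninjected ones. Cluster 16, led by Blnk, Il21r and Irf8, held 808 cells, of which 241 passed the dendritic gate and 171 the gate for B and plasma cells, and its class II sum was 2083 and 2955 CPM in injected cells of cluster 16, against 1456 and 3181 in uninjected ones. The values of injected and uninjected libraries overlapped in both clusters.

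Macrophage-like cells had a class II sum of 1409 and 1169 CPM in the injected libraries, against 1088 and 798 in the uninjected ones. Most of it lay in few cells. Cells with 10 or more class II UMIs, a line drawn after the values were seen, were 47 of 525 and 21 of 325 injected cells and 3 of 43 and 13 of 334 uninjected cells. They held 94.0% and 93.9% of the class II UMIs in the injected libraries, against 94.3% and 90.2% in the uninjected ones. Without them the sum was 94.96 and 77.1 CPM in the injected libraries, against 67.7 and 83.8 in the uninjected ones. The summed dendritic cell markers were 195 and 211 CPM in the high cells of the injected libraries, against 0 and 159 in those of the uninjected ones. In the other macrophage-like cells they were 51.8 and 88.5 in the injected libraries, against 47.4 and 19.5 in the uninjected ones. The macrophage markers of the high cells stood at 5788 and 3020 CPM in the injected libraries, against 7455 and 6882 in the uninjected ones. In the other cells they stood at 3661 and 3771 in the injected libraries, against 4439 and 3431 in the uninjected ones, below the high cells except in injected 2. The part of dendritic cells or doublets in the class II sum was not tested.

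In neutrophil-like, fibroblast-like and keratinocyte-like cells most or all of the class II sum lay within the limit that free RNA could give. Empty droplets carried class II UMIs at 2146 and 2870 CPM in the injected libraries, against 586 and 2180 in the uninjected ones. From the markers of other cell types found in each class, free RNA could account for up to 100% and 87.5% of the class II sum of injected neutrophil-like cells, against 94.1% and 84.5% in uninjected ones. The corresponding limits were 100% in all 4 libraries for keratinocyte-like cells and between 75.8% and 100% for fibroblast-like cells. In dendritic-like cells the limit was between 0.0663% and 0.101%. Class II sums were 99.3 and 131 CPM in injected neutrophil-like cells, against 90.1 and 130.5 in uninjected ones. Fibroblast-like cells had 29.7 and 23.3 CPM in the injected libraries, against 13.9 and 32.4 in the uninjected ones. Keratinocyte-like cells had 22.3 and 27.9 in injected libraries, against 17.5 and 29.2 in uninjected ones. These values overlapped between the groups. Where the limit was 100%, transcription of class II chains cannot be told apart from free RNA. In the other libraries part of the sum lay above the limit, and the source of that part was not tested. The levels of RT1-Da in neutrophil-like cells, 43.3 and 59.7 CPM in injected neutrophil-like cells, against 26.1 and 61.8 in uninjected ones, are to be read with this limit.

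Class I heavy chains were found in all classes. Among the 5 tested classes the sums were highest in T and NK-like, neutrophil-like and dendritic-like cells. The summed level was 12201 and 10185 CPM in injected T and NK-like cells, against 4545 and 8233 in uninjected ones. Neutrophil-like cells had 9948 and 6881 in the injected libraries, against 3324 and 6878 in the uninjected ones. Dendritic-like cells had 9137 and 6452 in injected libraries, against 3329.7 and 6667 in uninjected ones. Within each library the sums of these 3 classes lay above those of fibroblast-like cells, 3736 and 2664 in injected libraries, against 1182 and 1852 in uninjected ones, and of keratinocyte-like cells, 2162 and 2182.5 in injected libraries, against 971 and 1250.0 in uninjected ones. Free RNA could give at most 7.46% of the class I sum in any of these 5 classes. Against the mean of the other classes, 11 of 15 class I heavy chains were higher in neutrophil-like cells (all genes 31.5%), 9 of 15 in T and NK-like cells (all genes 30.0%) and 8 of 15 in dendritic-like cells. In keratinocyte-like cells 13 of 15 were lower (all genes 28.7%), and in fibroblast-like cells 11 of 15 were lower (all genes 29.8%). RT1-A1, a classical class I gene, was higher in neutrophil-like cells by log2 2.96, SE 0.14, adjusted p = 1.41e-14, and lower in keratinocyte-like cells by log2 -2.17, SE 0.19, adjusted p = 1.15e-09.

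The partners of class I also differed between classes. B2m, the light chain, was higher in neutrophil-like cells (log2 3.23, SE 0.14, adjusted p = 1.27e-15) and in T and NK-like cells (log2 0.64, SE 0.15, adjusted p = 9.97e-04). Psmb8, a catalytic subunit of the immunoproteasome, was higher in T and NK-like cells (log2 2.06, SE 0.17, adjusted p = 9.08e-10) and in dendritic-like cells (log2 1.59, SE 0.19, adjusted p = 2.41e-07), but lower in neutrophil-like cells (log2 -0.94, SE 0.22, adjusted p = 6.94e-04). Nlrc5, the class I transactivator, was higher in neutrophil-like cells (log2 2.48, SE 0.19, adjusted p = 5.54e-11), T and NK-like cells (log2 2.27, SE 0.18, adjusted p = 3.84e-10) and dendritic-like cells (log2 1.58, SE 0.22, adjusted p = 2.97e-06). Of all 33 members in the joint fit, 2 were lower in neutrophil-like cells, Psmb8 and Psmb10 (all genes 32.1%), and 2 in T and NK-like cells, RT1-Bb and RT1-Da (all genes 31.9%). None of the 33 was lower in dendritic-like cells (all genes 27.0%), and none was higher in keratinocyte-like cells (all genes 37.3%), where all 10 partners and regulators were lower. In fibroblast-like cells 6 of these 10 were lower and Psmb10, another inducible proteasome subunit, was higher (log2 0.70, SE 0.19, adjusted p = 0.00192), where 42.9% of all genes were called higher.

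Between injected and uninjected wounds, the edgeR quasi-likelihood test called 0 MHC and antigen processing genes in each of the 5 classes. The background was 0 of 8185 genes (0%) in T and NK-like cells, 0 of 7990 (0%) in neutrophil-like cells, 0 of 6542 (0%) in dendritic-like cells, 6 of 13244 (0.0453%) in fibroblast-like cells and 0 of 14454 (0%) in keratinocyte-like cells. The members that passed the filter on low counts numbered 27 in T and NK-like cells, 26 in neutrophil-like cells and 29 in each of the other classes. At an unadjusted p under 0.05 there were 9 of 27 in T and NK-like cells (all genes 8.05%), 5 of 29 in fibroblast-like cells (10.7%) and 4 of 29 in keratinocyte-like cells (5.22%), each with a fitted difference above 0. The 2 of 26 in neutrophil-like cells (all genes 9.20%) and the 1 of 29 in dendritic-like cells (6.08%) lay below the background. DESeq2 called 1 of 29 members in fibroblast-like cells, RT1-CE10, where it called 185 of 13244 genes (1.40%). It called 0 members in each other class.

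Both injected libraries lay above both uninjected ones for 15 of the 27 tested members in T and NK-like cells (all genes 31.6%) and for 15 of 29 in keratinocyte-like cells (all genes 31.1%). In neutrophil-like cells this held for 8 of 26 (all genes 17.5%), in fibroblast-like cells for 6 of 29 (17.2%) and in dendritic-like cells for 6 of 29 (19.3%), the last 2 close to the background. Both lay below for 1 member each in dendritic-like, fibroblast-like and keratinocyte-like cells (all genes 17.3%, 22.3% and 10.2%), and for none in neutrophil-like and T and NK-like cells (23.2% and 12.1%). The median fitted log2 difference of the tested members was 0.50 in T and NK-like, 0.46 in neutrophil-like, 0.29 in keratinocyte-like, 0.17 in fibroblast-like and 0.11 in dendritic-like cells. All genes tested had medians between -0.03 and 0.01. The order of libraries was taken from CPM, and where values are close the scaled library sizes of the fits can change it. A gene that is high in only 1 group can pass the filter through that group, so these counts and medians describe the members and test nothing.

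**Figure D2:**
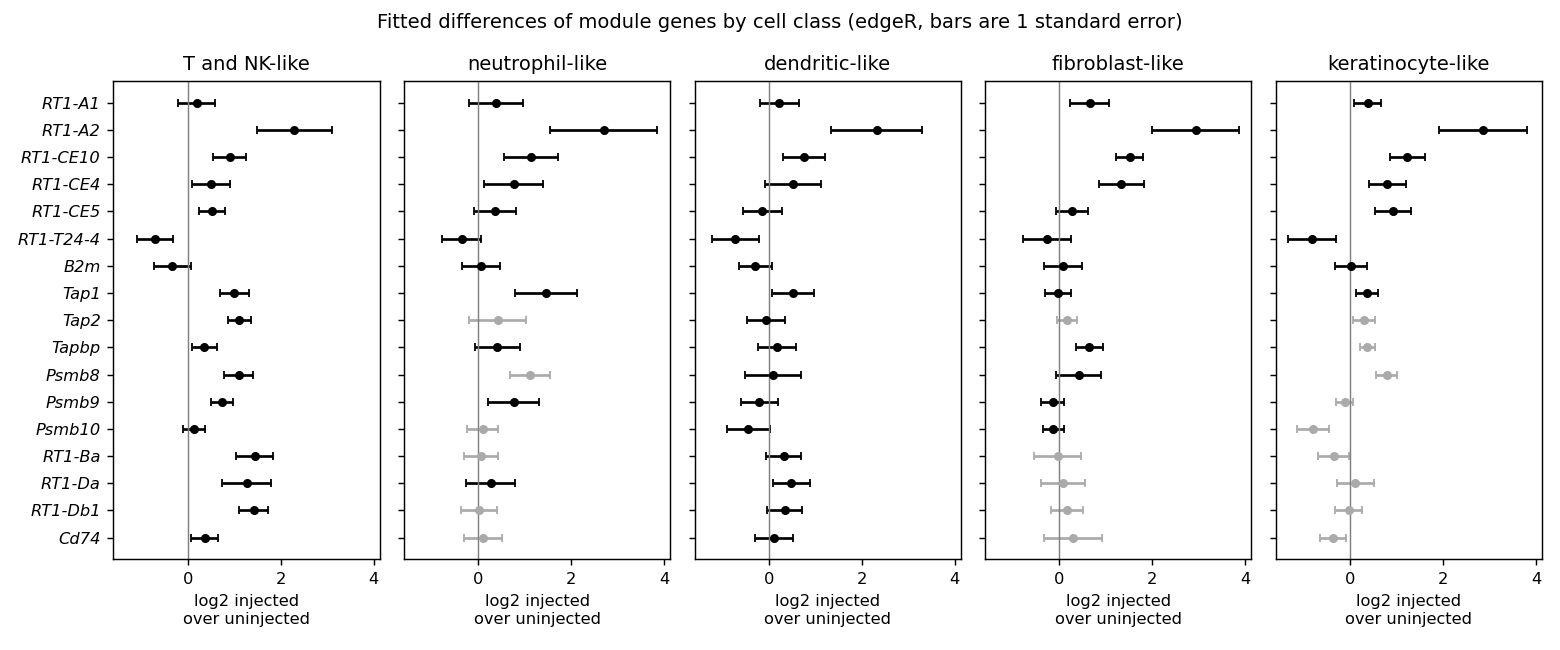
Fitted log2 differences, injected over uninjected, of 17 MHC and antigen processing genes in the 5 tested classes (edgeR), with bars of 1 standard error. Grey points are genes under 50 CPM in all 4 libraries of that class. RT1-A2 stands to the right in every panel, between 2.30 and 2.93, and no gene passed the test.

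RT1-A2, another classical class I gene, had the largest fitted difference in each tested class among the members that reached 50 CPM there. RT1-A2 had 2841 and 3153 CPM in injected T and NK-like cells, against 111 and 1014 in uninjected ones (log2 2.30, SE 0.80, adjusted p = 0.610). In injected neutrophil-like cells it had 1596 and 2298 CPM, against 35.0 and 557 in uninjected ones (log2 2.70, SE 1.15, adjusted p = 0.540). The groups did not overlap, and within the uninjected group replicate 1 was far below replicate 2. Dendritic-like cells had 2012 and 2049.7 in the injected libraries, against 38.0 and 771 in the uninjected ones (log2 2.32, SE 0.98, adjusted p = 0.815). Fibroblast-like cells had 712 and 697 in injected libraries, against 13.9 and 185 in uninjected ones (log2 2.93, SE 0.94, adjusted p = 0.398). Keratinocyte-like cells had 392 and 623 in injected libraries, against 13.1 and 119 in uninjected ones (log2 2.87, SE 0.95, adjusted p = 0.793). In all 5 classes uninjected 1 was lowest and uninjected 2 next. Without uninjected 1 the fitted difference was 1.51 in T and NK-like, 1.77 in neutrophil-like, 1.45 in dendritic-like, 2.05 in fibroblast-like and 2.04 in keratinocyte-like cells. Without uninjected 2 it was 4.39 in T and NK-like, 6.05 in neutrophil-like, 5.61 in dendritic-like, 5.56 in fibroblast-like and 5.03 in keratinocyte-like cells. These fits rest on 1 uninjected library, which is assumed to vary like the others.

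The division of counts between RT1-A1 and RT1-A2 also differed between libraries. RT1-A2 took 32.9% (95% interval 32.2 to 33.6%) and 46.2% (95% interval 44.9 to 47.5%) of the RT1-A1 and RT1-A2 UMIs of injected T and NK-like cells, against 3.75% (95% interval 2.80 to 4.99%) and 18.9% (95% interval 18.1 to 19.8%) in uninjected ones (Wilson intervals, which cover counting error only). Over the 5 tested classes the share lay between 20.3% and 32.9% in injected 1 and between 43.8% and 47.8% in injected 2, against 1.38% to 3.75% in uninjected 1 and 10.3% to 18.9% in uninjected 2. The 4 ranges did not overlap, and the replicates of each group differed from each other as well. RT1-A1 itself had 5785 and 3672 CPM in injected T and NK-like cells, against 2861 and 4353 in uninjected ones. It had 6273 and 2945 CPM in injected neutrophil-like cells, against 2509 and 4858 in uninjected ones. For dendritic-like cells RT1-A1 stood at 4672 and 2478 in the injected libraries, against 2330.5 and 3595 in the uninjected ones. In these 3 classes the groups overlapped. Fibroblast-like cells had 1579.5 and 760.2 RT1-A1 CPM in the injected libraries, against 699.8 and 822 in the uninjected ones, and keratinocyte-like cells 1115 and 725 in injected libraries, against 626 and 641 in uninjected ones. The groups overlapped in the first of these classes and, in CPM, not in the second. The fits scale library sizes, with factors of 1.05 in injected 2 and 0.883 in uninjected 1 for keratinocyte-like cells. With them the RT1-A1 levels of these libraries would change order, so the separation depends on the scaling. Fitted log2 differences of RT1-A1 lay between 0.20 and 0.65. Whether the RT1 haplotypes of the animals, or the division of similar reads between the genes, differed between libraries was not tested.

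**Figure D3:**
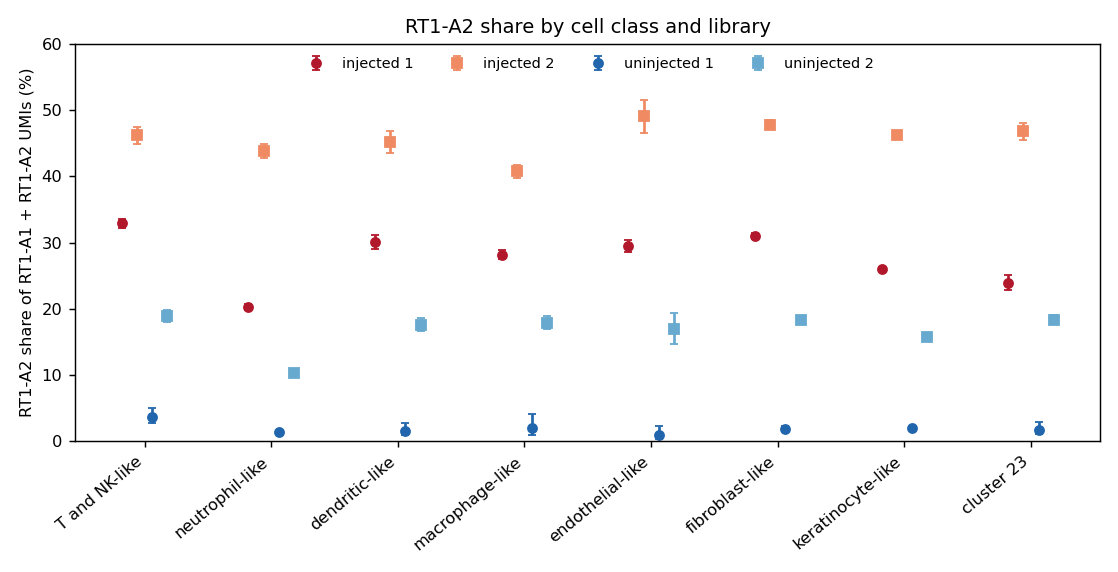
Share of RT1-A2 among the UMIs of RT1-A1 and RT1-A2 (percent, with 95% Wilson intervals) in 7 cell classes and cluster 23, 1 point per library (red and orange injected, blue uninjected). Within every class the order was the same, with injected 2 highest, then injected 1, uninjected 2 and uninjected 1.

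RT1-CE10 and RT1-CE4, class I genes of the C/E region, were also lowest in uninjected 1 in all 5 classes. RT1-CE10 had 189 and 254 CPM in injected fibroblast-like cells, against 58.5 and 101 in uninjected ones (log2 1.51, SE 0.29, adjusted p = 0.237), with no overlap of the groups. It was called by DESeq2 (adjusted p = 0.00166), which called 1.40% of all genes in this class. Without uninjected 1 the edgeR difference was log2 1.25. RT1-CE10 had 813 and 1097 CPM in injected T and NK-like cells, against 284 and 615 in uninjected ones (log2 0.90, SE 0.36, adjusted p = 0.610), again without overlap. Its level was 569.5 and 819 CPM in injected neutrophil-like cells, against 183 and 468 in uninjected ones (log2 1.13, SE 0.58, adjusted p = 0.569). Keratinocyte-like cells had 119.9 and 228 in the injected libraries, against 51.1 and 84.8 in the uninjected ones (log2 1.23, SE 0.37, adjusted p = 0.793). In dendritic-like cells the level was 521 and 703 in injected libraries, against 187 and 523 in uninjected ones, and the groups overlapped. RT1-CE4 had 790.5 and 712 CPM in injected fibroblast-like cells, against 148 and 479.9 in uninjected ones (log2 1.33, SE 0.48, adjusted p = 0.423). It had 1733 and 1475 CPM in injected T and NK-like cells, against 559.6 and 1467 in uninjected ones. Keratinocyte-like cells had 364 and 404 in injected libraries, against 114 and 293 in uninjected ones. The groups did not overlap in these 3 classes in CPM. Injected 2 and uninjected 2 were close in T and NK-like cells, and their scaling factors in the fit, 1.09 and 1.04, would change their order. For neutrophil-like cells RT1-CE4 stood at 1025 and 546 in the injected libraries, against 257 and 699 in the uninjected ones. For dendritic-like cells it stood at 1094 and 793 in injected libraries, against 225 and 1079 in uninjected ones. In both of these classes uninjected 2 lay above injected 2.

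RT1-T24-4, a class I gene outside the classical RT1-A region, stood highest in uninjected 1 in every tested class. It had 273 and 161 CPM in injected T and NK-like cells, against 354 and 249.7 in uninjected ones (log2 -0.70, SE 0.39, adjusted p = 0.646). Its level was 134 and 87.4 CPM in injected neutrophil-like cells, against 212 and 104 in uninjected ones, and 165 and 74.5 CPM in injected dendritic-like cells, against 256 and 129 in uninjected ones. Fibroblast-like cells had 112 and 57.9 in the injected libraries, against 142 and 59.1 in the uninjected ones, and keratinocyte-like cells 46.9 and 31.7 in injected libraries, against 86.7 and 34.0 in uninjected ones. The groups overlapped in all 5 classes, and without uninjected 1 the fitted difference was -0.23 in T and NK-like and 0.16 in keratinocyte-like cells. Without uninjected 2 the fitted difference was -1.04 in T and NK-like and -1.39 in keratinocyte-like cells.

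The other class I heavy chains that reached 50 CPM were low. RT1-CE5 had 313 and 279 CPM in injected T and NK-like cells, against 192 and 164 in uninjected ones (log2 0.52, SE 0.28, adjusted p = 0.639). It had 58.7 and 114 CPM in injected keratinocyte-like cells, against 46.3 and 34.7 in uninjected ones (log2 0.93, SE 0.39, adjusted p = 0.793). In both classes the groups did not overlap. Fibroblast-like cells had 69.8 and 43.6 RT1-CE5 CPM in the injected libraries, against 55.1 and 39.6 in the uninjected ones, neutrophil-like cells 82.4 and 38.6 in injected libraries, against 66.5 and 38.5 in uninjected ones, and dendritic-like cells 210.1 and 90.2 in injected libraries, against 159 and 160.5 in uninjected ones. RT1-T24-3 had 102 and 38.6 CPM in injected neutrophil-like cells, against 3.97 and 35.4 in uninjected ones (log2 1.85, SE 0.98, adjusted p = 0.577). Fibroblast-like cells had 127 and 35.0 in injected libraries, against 4.80 and 55.1 in uninjected ones. Uninjected 1 was again the lowest library for this gene. RT1-S3 had 273 and 139.9 CPM in injected dendritic-like cells, against 38.0 and 212 in uninjected ones. It had 165 and 104 CPM in injected T and NK-like cells, against 45.6 and 126 in uninjected ones. For RT1-S3 the fibroblast-like values were 75.3 and 42.3 in injected libraries, against 17.02 and 47.0 in uninjected ones, and the neutrophil-like values 63.0 and 21.01 in injected libraries, against 7.45 and 34.5 in uninjected ones. The groups of RT1-S3 overlapped in these 4 classes. RT1-CE1 had 96.2 and 93.0 CPM in injected T and NK-like cells, against 48.1 and 96.9 in uninjected ones. The neutrophil-like values of RT1-CE1 were 70.3 and 58.3 in injected libraries, against 22.6 and 64.5 in uninjected ones, and the dendritic-like values 80.5 and 47.1 in injected libraries, against 34.6 and 94.0 in uninjected ones. RT1-CE7 had 63.3 and 56.1 CPM in injected T and NK-like cells, against 20.3 and 64.6 in uninjected ones. Neither RT1-CE1 nor RT1-CE7 separated the groups. Of the 41 members 16 never reached 50 CPM in a library of a tested class. In the cells placed in a class 9 had under 100 UMIs, and 2 of these, RT1-M4 and RT1-M5, had none there.

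B2m, without which most heavy chains do not reach the cell surface, had fitted differences near 0. It had 6999.5 and 7603 CPM in injected T and NK-like cells, against 8141 and 7445 in uninjected ones (log2 -0.33, SE 0.40, adjusted p = 0.807). Its level was 7819.8 and 6696 CPM in injected neutrophil-like cells, against 7708 and 7299 in uninjected ones. Dendritic-like cells had 3694 and 3370.0 in the injected libraries, against 4454 and 3809 in the uninjected ones, where both injected libraries lay below both uninjected ones. Fibroblast-like cells had 1654 and 1834 in injected libraries, against 2049 and 1212 in uninjected ones, and keratinocyte-like cells 1052 and 1304 in injected libraries, against 1219 and 844 in uninjected ones. In uninjected 1, the library with the least RT1-A2, B2m was the highest of the 4 in T and NK-like, dendritic-like and fibroblast-like cells. Fitted log2 differences of B2m lay between -0.33 and 0.08. They use scaled library sizes (factors between 0.825 and 1.15), so they can differ from the ratio of the levels.

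In T and NK-like cells the genes that cut and carry class I peptides lay above both uninjected libraries in both injected ones, without passing the test. Psmb8 had 587 and 661 CPM in injected T and NK-like cells, against 169.6 and 339 in uninjected ones (log2 1.10, SE 0.31, adjusted p = 0.610). Psmb9, the inducible subunit that replaces Psmb6, had 170.2 and 188 in the injected libraries, against 83.6 and 102 in the uninjected ones (log2 0.74, SE 0.23, adjusted p = 0.610). Tap1, a subunit of the peptide transporter, had 226 and 172 in injected libraries, against 55.7 and 114 in uninjected ones (log2 1.002, SE 0.31, adjusted p = 0.610). Uninjected 1 was the lowest library for each of these 3 genes, and also for Tap2, Tapbp and Psmb10 below. Tap2, the other subunit, had 119.7 and 109 in injected libraries, against 38.0 and 52.5 in uninjected ones (log2 1.11, SE 0.25, adjusted p = 0.610). Tapbp, tapasin, had 174 and 148 in injected libraries, against 81.0 and 135 in uninjected ones (log2 0.36, SE 0.26, adjusted p = 0.690). Psmb10 had 143 and 143 in injected libraries, against 101 and 124 in uninjected ones (log2 0.13, SE 0.23, adjusted p = 0.874). These 6 genes did not overlap between the groups, Tapbp and Psmb10 only narrowly. In this class 31.6% of all genes lay above both uninjected libraries in both injected ones, and 12.1% lay below. Nlrc5 had 67.2 and 57.2 CPM in injected T and NK-like cells, against 30.4 and 62.6 in uninjected ones, with overlap. Without uninjected 2, 13 of 25 members were called in T and NK-like cells (all genes 10.3%), and without uninjected 1, 2 of 28 were, RT1-A2 and RT1-Db1 (all genes 1.02%). Median depth was 4429 and 4358 UMIs per T and NK-like cell in the injected libraries, against 3019 and 4284 in the uninjected ones, and the part of depth was not tested.

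In the other 4 classes the same machinery was also not called. Tap1 had 91.2 and 61.0 CPM in injected neutrophil-like cells, against 12.7 and 44.2 in uninjected ones (log2 1.46, SE 0.66, adjusted p = 0.544), and 52.7 and 43.3 CPM in injected keratinocyte-like cells, against 25.6 and 42.2 in uninjected ones, without overlap in either class. Fibroblast-like cells had 69.0 and 60.3 Tap1 CPM in the injected libraries, against 46.4 and 89.4 in the uninjected ones, and dendritic-like cells 122 and 62.7 in injected libraries, against 34.6 and 84.1 in uninjected ones, both with overlap. Tapbp had 101 and 111 CPM in injected fibroblast-like cells, against 46.1 and 93.5 in uninjected ones (log2 0.65, SE 0.29, adjusted p = 0.496), without overlap. Its neutrophil-like values were 63.2 and 50.2 in injected libraries, against 29.3 and 59.6 in uninjected ones, and its dendritic-like values 139 and 79.7 in injected libraries, against 58.8 and 123 in uninjected ones. Tap2 had 64.4 and 36.6 CPM in injected dendritic-like cells, against 62.2 and 44.5 in uninjected ones. Psmb8 had 336 and 152 CPM in injected dendritic-like cells, against 83.0 and 358 in uninjected ones, and 124 and 147 CPM in injected fibroblast-like cells, against 44.7 and 169 in uninjected ones. In each of these the groups overlapped. Psmb9 had 122 and 68.5 CPM in injected neutrophil-like cells, against 36.7 and 80.5 in uninjected ones. Its dendritic-like values were 145 and 118 in injected libraries, against 83.0 and 206 in uninjected ones, and its fibroblast-like values 59.3 and 49.5 in injected libraries, against 47.8 and 76.0 in uninjected ones. Psmb10 had 66.2 and 40.5 CPM in injected dendritic-like cells, against 34.6 and 98.97 in uninjected ones, and 73.7 and 82.7 CPM in injected fibroblast-like cells, against 71.5 and 103 in uninjected ones. Neither Psmb9 nor Psmb10 separated the groups in those classes, and fitted differences of the 3 subunits there lay between -0.44 and 0.76.

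Class II chains of dendritic-like cells were not called either. RT1-Db1 had 19358 and 22348 CPM in injected dendritic-like cells, against 15283 and 16634 in uninjected ones (log2 0.34, SE 0.38, adjusted p = 0.944). RT1-Da had 18787 and 21976 CPM in injected dendritic-like cells, against 11234 and 17298 in uninjected ones (log2 0.48, SE 0.40, adjusted p = 0.903). RT1-Ba had 5535 and 7529.5 CPM in injected dendritic-like cells, against 5218 and 4875 in uninjected ones (log2 0.32, SE 0.38, adjusted p = 0.949). For these 3 chains both injected libraries were above both uninjected ones in CPM (all genes 19.3%). The fitted difference lay between 0.32 and 0.48 on the log2 scale and uses scaled library sizes. The scaling factors were 1.04 in injected 1 and 0.922 in uninjected 1. With them the RT1-Ba levels of these libraries, 5535 and 5218, would change order, so the separation of RT1-Ba depends on the scaling. RT1-Bb had 5085 and 5611 CPM in injected dendritic-like cells, against 7409.8 and 3956 in uninjected ones (log2 -0.17, SE 0.45, adjusted p = 0.981). Cd74 had 14688 and 23186 CPM in injected dendritic-like cells, against 16106 and 18048 in uninjected ones (log2 0.11, SE 0.42, adjusted p = 0.993). RT1-DOa had 40.2 and 65.4 CPM in injected dendritic-like cells, against 34.6 and 25.4 in uninjected ones, and RT1-DOb 100.1 and 30.1 in injected libraries, against 17.3 and 82.0 in uninjected ones. The groups overlapped for RT1-Bb, Cd74 and RT1-DOb. Among dendritic-like cells thinned to 1000 UMIs, 100% carried class II or Cd74 UMIs in every library, with medians of 52.5 and 78 such UMIs per cell in the injected libraries, against 48 and 48 in the uninjected ones.

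In T and NK-like cells the class II sum was 494 and 352 CPM in the injected libraries, against 70.9 and 207 in the uninjected ones. Free RNA could give at most 7.98% and 12.6% of it in the injected libraries, against 48.0% and 24.5% in the uninjected ones. RT1-Db1 had 227 and 219 CPM in injected T and NK-like cells, against 43.0 and 97.6 in uninjected ones (log2 1.42, SE 0.31, adjusted p = 0.610). RT1-Da had 159 and 75.1 CPM in injected T and NK-like cells, against 15.2 and 63.3 in uninjected ones (log2 1.27, SE 0.53, adjusted p = 0.610). RT1-Ba had 53.5 and 39.4 CPM in injected T and NK-like cells, against 7.60 and 19.5 in uninjected ones (log2 1.44, SE 0.40, adjusted p = 0.610). The groups did not overlap for the 3 chains, where 31.6% of all genes lay above likewise, and no call was made. Cd74 had 119 and 144 CPM in injected T and NK-like cells, against 58.2 and 115 in uninjected ones (log2 0.36, SE 0.29, adjusted p = 0.714). These directions depended on how the cells were chosen. With the marker gate alone, without the condition on the cluster, the fitted difference was -0.08 for RT1-Db1, -0.48 for RT1-Da, -0.27 for RT1-Ba and -0.62 for Cd74, so the order of the groups turned round.

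The class II UMIs of T and NK-like cells lay in part in few cells. Cells with 10 or more numbered 18 and 6 in the injected libraries, against 0 and 6 in the uninjected ones. They held 77.0% and 34.2% of the class II UMIs in the injected libraries, against 0% and 55.4% in the uninjected ones. Without them the sum was 122 and 246 CPM in the injected libraries, against 70.9 and 94.7 in the uninjected ones, and the groups still did not overlap. T and NK markers in these cells stood at 3882 and 2696 CPM in the injected libraries and at 3321 in uninjected 2. In the other cells of the class they stood at 3452 and 3132 in the injected libraries, against 2438 and 2637 in the uninjected ones. The high cells had 0 UMIs of the B and plasma cell list. Their macrophage markers stood at 14.8 and 19.8 CPM in the injected libraries and at 0 in uninjected 2. The other cells of these libraries had 12.6 and 2.54 CPM, and 11.8 in uninjected 2. Dendritic cell markers of the high cells stood at 51.7 and 39.6 CPM in the injected libraries and at 25.6 in uninjected 2. Those of the other cells were higher, at 58.3 and 48.2 CPM, and at 56.7 in uninjected 2. Over all T and NK-like cells, dendritic cell markers summed to 57.9 and 47.7 CPM in the injected libraries, against 40.5 and 55.9 in the uninjected ones, with 10 and 5 of 12 markers detected in injected and 4 and 6 in uninjected libraries, and Siglech at 0 in all 4. Macrophage markers summed to 12.7 and 3.58 in injected libraries, against 5.06 and 11.4 in uninjected ones, with 10 and 2 of 11 detected in injected and 2 and 6 in uninjected libraries. B and plasma cell markers summed to 7.36 and 23.9 in injected libraries, against 20.3 and 14.1 in uninjected ones, with 3 and 3 of 8 detected in injected and 3 and 4 in uninjected libraries, and Ms4a1 and Mzb1 at 0 in all 4. Neutrophil markers summed to 84.9 and 89.5 CPM in injected libraries, against 527 and 358 in uninjected ones, with 7 and 4 of 10 detected in injected and 9 and 7 in uninjected libraries. Keratinocyte markers summed to 480.3 and 704 CPM in injected libraries, against 1307 and 721 in uninjected ones. The part of these lists in the levels of T and NK-like cells was not tested.

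Counted per cell, class II or Cd74 UMIs were present in 37.8% and 62.4% of injected T and NK-like cells, against 19.5% and 36.3% of uninjected ones. Thinned to 1000 UMIs per cell, which left out 7 and 1 shallower injected cells and 1 and 2 uninjected ones, the shares were 16.8% and 29.5% in the injected libraries, against 12.5% and 13.3% in the uninjected ones. The 95% Wilson intervals were 13.3 to 20.8% and 22.9 to 37.1% in the injected libraries, against 7.59 to 19.9% and 10.0 to 17.5% in the uninjected ones. Neutrophil-like cells, where free RNA could give most of the class II sum, had thinned shares of 9.65% and 14.9% in the injected libraries, against 8.99% and 14.7% in the uninjected ones, at median depths of 1378 and 1379 UMIs in injected and 1057 and 1447 in uninjected libraries. Keratinocyte-like cells, the most numerous class, had 2.31% and 3.80% in injected libraries, against 2.52% and 3.99% in uninjected ones, at medians of 12208.5 and 12775 UMIs in injected and 9872 and 16152 in uninjected libraries. The T and NK-like share was above the neutrophil-like share of the same library in both injected libraries and in uninjected 1, and below it in uninjected 2, so that the share of cells alone shows no difference from neutrophil-like cells there.

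**Figure D4:**
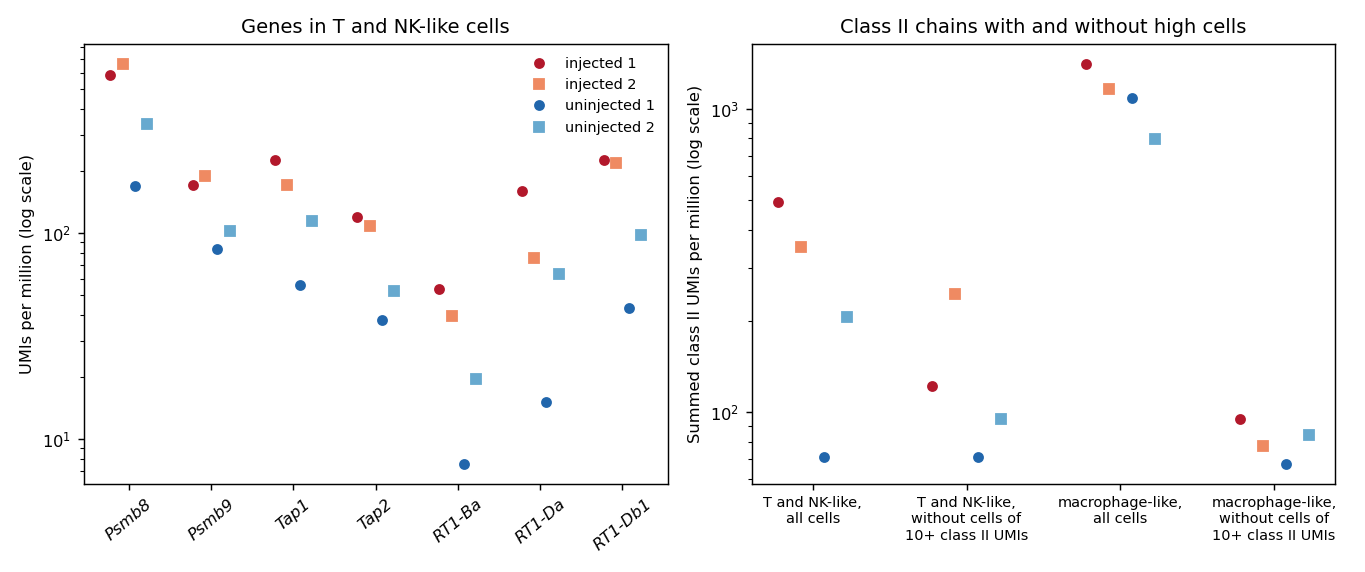
Left, levels of 7 genes in T and NK-like cells in CPM (log axis), 1 point per library. Right, the summed class II level of T and NK-like and macrophage-like cells with all cells and without cells of 10 or more class II UMIs. The injected libraries lie above the uninjected ones for all 7 genes, as for 31.6% of all genes tested in T and NK-like cells. The macrophage-like sums lie between 67.7 and 94.96 without the high cells.

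The difference between injected and uninjected libraries was not shown to vary between classes for any member. The interaction of class and injection called 0 members, and 15 of 12777 genes (0.117%). The smallest p among the members was that of RT1-Db1 (adjusted p = 0.213, edgeR quasi-likelihood test), followed by Tap1 (adjusted p = 0.284), the first with its largest fitted difference in T and NK-like and the second in neutrophil-like cells. Neither passed the threshold, so the fitted differences of the classes are given side by side without a claim that they differ.

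Macrophage-like cells could be fitted when classes were taken from named clusters alone, where each library held at least 50 cells. In that fit 0 of 27 members were called (1 of 8700 genes, 0.0115%), and 9 of 27 lay above both uninjected libraries in both injected ones (all genes 9.43%). RT1-A2 had 1640.3 and 1911 CPM in the injected libraries, against 43.0 and 569.9 in the uninjected ones (log2 2.70, SE 0.77, adjusted p = 0.894). RT1-A1 had 4226 and 2752 in injected libraries, against 2154 and 2623 in uninjected ones (log2 0.78, SE 0.40, adjusted p = 0.899). RT1-Db1 had 441 and 359 in injected libraries, against 285 and 246 in uninjected ones (log2 0.83, SE 0.36, adjusted p = 0.899). The groups did not overlap for these 3 genes. Without uninjected 2 the fit called 2 of 27 members (64 of 9206 genes, 0.695%), RT1-A2 at 5.58 (adjusted p = 0.00812) and RT1-CE4 at 2.52 (adjusted p = 0.0322). Without uninjected 1 it called 0 of 28, with RT1-A2 at 1.87 (adjusted p = 0.358). With the marker gate alone RT1-Db1 turned to -0.72, at 2458 and 2214 CPM in the injected libraries, against 4658 and 3611 in the uninjected ones. In the gated cells the class I sum was 7977 and 6527 CPM in injected macrophage-like cells, against 2972 and 4710.4 in uninjected ones.

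Among 42 further genes of the pathway, a list drawn up with earlier results of these data known, 0 were called in any class. Tested were 35 in T and NK-like cells, 35 in neutrophil-like cells, 35 in dendritic-like cells, 39 in fibroblast-like cells and 39 in keratinocyte-like cells. At an unadjusted p under 0.05 there were 4, 6, 5, 3 and 3, in that order of classes, against 8.05%, 9.20%, 6.08%, 10.7% and 5.22% of all genes. The fibroblast-like count was below this background, and the keratinocyte-like and T and NK-like counts were near it. Both injected libraries lay above both uninjected ones for 12, 11, 17, 9 and 15 of the tested list. The shares of all genes were 31.6%, 17.5%, 19.3%, 17.2% and 31.1%. Both lay below for 2, 5, 4, 5 and 3 (all genes 12.1%, 23.2%, 17.3%, 22.3% and 10.2%). The genes named here are among the 3 of smallest p in each class, so their separation of the groups was largely given by that choice. In T and NK-like cells Lgmn, an endosomal protease, had 59.9 and 112 in injected libraries, against 25.3 and 44.4 in uninjected ones, and Irf2, an interferon regulatory factor, 105 and 128 in injected libraries, against 65.8 and 64.6 in uninjected ones. The groups did not overlap for either gene, and neither passed the test. Neutrophil-like cells had 1478 and 2703 CPM of Icam1, an adhesion molecule, in the injected libraries, against 891 and 433 in the uninjected ones (log2 1.80, SE 0.49, adjusted p = 0.538). Ifngr2, a chain of the interferon gamma receptor, had 106 and 125 in injected libraries, against 47.4 and 54.6 in uninjected ones, and Nfyb, a subunit of NF-Y, 5.12 and 6.10 in injected libraries, against 13.2 and 15.0 in uninjected ones. Icam1 and Ifngr2 lay above, and Nfyb below, both uninjected libraries in both injected ones.

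In dendritic-like cells Ifngr2 had 208 and 182 CPM in the injected libraries, against 83.0 and 96.8 in the uninjected ones (log2 1.06, SE 0.29, adjusted p = 0.803). Cd80, a costimulatory ligand, had 143 and 105 in injected libraries, against 27.7 and 58.7 in uninjected ones (log2 1.39, SE 0.38, adjusted p = 0.803), and Irf1, an interferon regulatory factor, 104 and 96.7 in injected libraries, against 27.7 and 57.3 in uninjected ones (log2 1.11, SE 0.37, adjusted p = 0.803). None of them overlapped between the groups. Fibroblast-like cells had 107 and 98.6 CPM of Ifngr1, the ligand-binding chain of the same receptor, in the injected libraries, against 60.3 and 70.3 in the uninjected ones (log2 0.68, SE 0.21, adjusted p = 0.389). The endosomal proteases Ctsl and Ctsd had 2785 and 2545 in injected libraries, against 1461 and 1574 in uninjected ones, and 208 and 172 in injected libraries, against 114 and 133 in uninjected ones. In keratinocyte-like cells Cd274, the checkpoint ligand PD-L1, had 8.50 and 8.28 in the injected libraries, against 4.78 and 5.59 in the uninjected ones. Cd80 had 3.10 and 5.87 in injected libraries, against 1.94 and 2.14 in uninjected ones, and Stat2, a transcription factor of interferon signalling, 10.0 and 11.2 in injected libraries, against 6.54 and 6.998 in uninjected ones. These 6 genes of fibroblast-like and keratinocyte-like cells lay above both uninjected libraries in both injected ones, and none passed the test. Here and in dendritic-like cells the genes were picked by small p, so this separation is no added support. The keratinocyte-like levels of Cd274, Cd80 and Stat2 were under 12 CPM.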

How the data were processed

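The deposited files hold whole-number UMI counts per gene and barcode, made by the authors with Cell Ranger 7.2.0 per the file headers and 5.0.1 per the submitters' processing notes. For the build and gene annotation, nothing is stated in the labels or headers. Cells were called from the barcodes by a knee and a comparison with empty droplets (1000 draws, false discovery rate 0.01), and kept at 250 or more genes and at most 20% mitochondrial UMIs. Doublets were scored by a Scrublet-type method at 0.8% per 1000 cells and removed. Cells were clustered with scanpy 1.11.5 (2000 variable genes, 30 components, resolution 1.0) without the MHC and antigen processing genes.

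A cell met a class gate when at least 2 markers of the class were detected and its markers exceeded 10% free RNA by 1 on the log2 scale, and was kept where its cluster had the same name. Several gates were tried. The final gate and the condition on the cluster were set after levels of these genes had been seen, and a margin between classes was dropped so that dendritic-like cells reached 50 per library. The estimate of free RNA was also revised once. The members and lists were chosen with earlier results of these data known.

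Counts were summed per class and library, given as CPM of that sum, and tested with edgeR 4.0.16 (TMM scaling, filterByExpr, quasi-likelihood test, Benjamini-Hochberg adjusted p under 0.05), fitting each class apart. Class contrasts and the interaction used 1 joint fit with library as a term. DESeq2 1.42.0, other filters and classes, and fits without each library were the alternatives. Values per library are given for every member that reached 50 CPM in a library of a tested class. The scripts were tested on simulated data. Intervals and limits cover counting error only. The promoters shown were picked after motif matches were seen, and each of the 5 motifs searched is reported. The promoters of RT1-M2, RT1-M4, RT1-DMb, RT1-CE7, Ciita and Nlrc5 are not shown here. Some genes of the marker and pathway lists are not reported here.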

Additional observations from a re-analysis of the deposited data

How the results depend on the processing

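With 2 libraries a group and uninjected 1 both shallow and low in most class I genes, the number of calls depended on which uninjected library was kept. The fitted difference of RT1-A2 kept its direction in each tested class with either uninjected library left out. Of 847 values of single genes under the alternatives, 731 (86.3%) kept their direction and their side of the threshold, 56 (6.61%) passed it only under the alternative and 60 (7.08%) changed sign. Causes were not tested except where stated.

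Genes called in dendritic-like, fibroblast-like, keratinocyte-like, neutrophil-like and T and NK-like cells, in that order, numbered 4, 185, 40, 37 and 5 with DESeq2 and 157, 778, 2, 379 and 237 with no filter on low counts. Members called with no filter numbered 1 of 37 in dendritic-like (all genes 1.08%), 7 of 35 in fibroblast-like (4.18%), 2 of 34 in neutrophil-like (2.30%) and 5 of 35 in T and NK-like cells (1.58%), and with DESeq2 1 of 29 in fibroblast-like cells (1.40%). The labels do not pair the libraries, and the correlation of deviations of libraries with the same number was -0.169, -0.0423, -0.0767, -0.156 and -0.111 in the 5 classes. With the replicate block 26 genes were called in fibroblast-like and 2 in T and NK-like cells, and Tap1 turned to 0.013 in fibroblast-like cells. With crossed pairing, added after seeing the data, 80 genes and 1 member were called in dendritic-like cells, 1 gene in neutrophil-like and 3 genes in T and NK-like cells.

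Leaving out 1 library in turn, genes called ranged from 2 to 380 in dendritic-like, 0 to 1012 in fibroblast-like, 0 to 740 in keratinocyte-like, 0 to 1621 in neutrophil-like and 0 to 832 in T and NK-like cells, and members called from 0 to 4, 0 to 8, 0 to 6, 0 to 12 and 0 to 13. Fewer members were called without uninjected 1, among them RT1-A2 in each class but keratinocyte-like cells, where none was. The highest counts came without uninjected 2. Without it, members called were 4 of 30 in dendritic-like (all genes 5.55%), 8 of 28 in fibroblast-like (7.47%), 6 of 30 in keratinocyte-like (4.96%) and 12 of 26 in neutrophil-like cells (18.3%). Without either injected library 0 members were called in each class.

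Members lower than in the other classes numbered 1 in dendritic-like and 1 in T and NK-like cells with classes from named clusters, and 1 to 3 in neutrophil-like cells leaving out 1 library. The difference of the class II sum, injected minus uninjected, was 14.6 CPM in fibroblast-like cells by named clusters and 23.3 without doublet removal. In T and NK-like cells it was 175 without doublet removal and 101 without cells of 10 or more class II UMIs. Without doublet removal no cluster was named dendritic, so those values could not be computed.

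In dendritic-like cells signs turned for Tap2 (0.020 with no filter), RT1-CE1 (0.031 by named clusters), RT1-A1 (-0.10) and Cd74 (-0.22) with the marker gate alone. In keratinocyte-like cells B2m turned to -0.0035 by named clusters and -0.0013 without doublet removal. With the marker gate alone RT1-Da was -0.70 and B2m -0.12 in neutrophil-like cells, and in T and NK-like cells RT1-Ba was -0.27, RT1-Db1 -0.084, RT1-Da -0.48 and Cd74 -0.62. Cd74 in T and NK-like cells was also -0.45 by named clusters and -0.14 without doublet removal.

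Log2 differences that changed sign when 1 library was left out ranged, in dendritic-like cells, from -0.82 to 1.80 for RT1-DOb, -0.24 to 0.60 for RT1-A1, -0.21 to 0.78 for Tapbp, -0.54 to 1.43 for Psmb8, -0.50 to 0.77 for RT1-CE1, -0.82 to 0.33 for RT1-CE5, -0.29 to 0.45 for Cd74, -0.50 to 0.25 for Tap2, -0.59 to 0.48 for RT1-Bb, -0.15 to 1.94 for RT1-CE4, -0.60 to 0.54 for Psmb9 and -0.83 to 0.51 for Psmb10. In fibroblast-like cells they ranged from -0.15 to 0.65 for RT1-CE5, -0.0070 to 1.10 for RT1-A1, -0.85 to 0.66 for RT1-T24-4, -0.34 to 0.38 for Tap1, -0.20 to 1.495 for Psmb8, -0.34 to 0.65 for B2m, -0.36 to 0.088 for Psmb9 and -0.28 to 0.026 for Psmb10. Keratinocyte-like ranges were -0.29 to 0.43 for B2m and -1.39 to 0.16 for RT1-T24-4. Neutrophil-like ranges were -0.019 to 2.83 for RT1-S3, -0.32 to 0.85 for RT1-CE5, -0.30 to 1.14 for RT1-A1, -0.084 to 0.22 for B2m, -0.72 to 0.071 for RT1-T24-4, -0.32 to 1.22 for RT1-Da, -0.024 to 1.78 for RT1-CE1 and -0.089 to 1.23 for Tapbp. T and NK-like ranges were -0.18 to 0.51 for RT1-A1, -0.086 to 0.62 for RT1-CE1, -0.15 to 1.21 for RT1-CE7 and -0.045 to 0.70 for Nlrc5.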
